A study of Mus musculus with 2 samples.

Results

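The 10 regulators of urothelial differentiation described here were followed in ureters of mouse embryos by the 16 probes that carry their names on the array. They were 9 transcription factor genes (Grhl2, Grhl3, Elf3, Elf5, Ehf, Trp63, Foxa1, Pparg and Klf5) and Esrp1, a regulator of splicing. All 10 genes, of 20923 tested on the array, had a probe above background, and 15 of their 16 probes could be tested. The mutant ureters (Pax2-cre/+;Fgfr1(fl/?);Fgfr2(fl/fl)) carried a Cre transgene driven by Pax2 sequence, and both their alleles of the FGF receptor gene Fgfr2 were floxed. The control ureters (Fgfr1(fl/?);Fgfr2(fl/?)) had no Cre. Both groups carried a floxed allele of Fgfr1, with the second Fgfr1 allele not specified, and the second Fgfr2 allele of the controls was also not specified. All embryos were NMRI at E13.5, and 150 ng of RNA was labelled per pool. Female pools were on array 1, where Cy5 marked the mutant and Cy3 the control. Male pools were on array 2, where Cy3 marked the mutant and Cy5 the control. Dye, sex and array therefore changed together and cannot be told apart. Each RNA sample of whole ureters is called a pool here, although the sources used here do not give the number of embryos behind it. Cre under Pax2 sequence is known to act in the epithelium of the nephric duct and its branches and not in every cell of the ureter.

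Urothelium is the stratified lining of the ureter and bladder, and at this stage the ureteric epithelium has not yet formed its layers. Basal cells of the later urothelium depend on p63, the product of Trp63, and its surface cells make uroplakins, which form plaques in the outer membrane. PPARG and FOXA1 act together on urothelial genes in cultured human cells. KLF5, ELF3 and GRHL3 are also known for roles in bladder urothelium, and GRHL2 and the ESRP proteins keep epithelial junction genes and epithelial splice forms on in many tissues. Among those splice forms is the epithelial one of FGFR2 itself.

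The probes are shown first because the reading of several genes turns on which stretch of the transcript was measured. Each is 60 bases long. Of the 16 probes of the 10 genes, 10 are printed, 5 whole and 5 by their first 30 bases. No probe sequence of the 10 genes occurred a second time on the array. Positions and strands are those of the array design, on mm9. Capitals mark the run of CAG units in the brightest Trp63 probe, a run that no probe on the array exceeds. No annotation of this build was at hand, so exons and untranslated parts are not named.
Grhl2, dimmer probe, whole, chr15:37239426-37239485, plus strand: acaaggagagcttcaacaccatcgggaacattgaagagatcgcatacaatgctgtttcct
Grhl2, brighter probe, first bases, chr15:37293139-37293198, plus strand: ccctttctgaaggacaagcaggggagactc
Grhl3, first bases, chr4:135097991-135098050, minus strand: ggaacaaatacccttgccacctactgttgt
Elf5, first bases, chr2:103290958-103291017, plus strand: tgtctagtgaccggcactgaatagcaatgc
Ehf, dimmer probe, whole, chr2:103114043-103114102, minus strand: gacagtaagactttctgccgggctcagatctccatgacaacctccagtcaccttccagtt
Ehf, brighter probe, first bases, chr2:103106827-103106886, minus strand: ggattctgatcaatgaagaaccggacgtaa
Trp63, brightest probe, whole, chr16:25871159-25871218, plus strand: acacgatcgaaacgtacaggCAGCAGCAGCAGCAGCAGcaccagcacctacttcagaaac
Trp63, probe farthest downstream, first bases, chr16:25892012-25892071, plus strand: caaaaggtactttcttatagacatgatact
Klf5, whole, chr14:99702656-99712388, plus strand: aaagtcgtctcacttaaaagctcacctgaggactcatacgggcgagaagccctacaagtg
Esrp1, dimmer probe, whole, chr4:11284629-11284688, minus strand: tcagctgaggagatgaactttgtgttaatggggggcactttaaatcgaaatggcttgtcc
The Klf5 probe covers 9733 bases of the genome with 60 bases of sequence, so it joins separate parts of the gene as a spliced transcript does. The 2 Ehf probes start 7216 bases apart, the 2 Esrp1 probes 24421 bases and the 2 Grhl2 probes 53713 bases, so the members of each pair measure distant stretches of 1 gene.

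Of all 39429 probes, 27493 were tested, and no spot was saturated. The brightest tested probe stood for its gene. Ratios are mutant over control on the log2 scale, with the value of array 1 before that of array 2, or as mean ± SD (n = 2 arrays). Across genes the ratios had an SD of 0.208 on array 1 and 0.325 on array 2, and limma called 6 genes (adjusted p under 0.05), all higher in the mutant. The ratios of the 2 arrays had a correlation across genes of -0.024 (Pearson) and -0.13 (Spearman). Only the mutants had Cre, and they carried floxed alleles of Fgfr1 as well as Fgfr2. Fgfr2 was not lower at its 2 overlapping probes. The ratios were 0.27 and 0.057 at the brighter Fgfr2 probe and 0.081 and 0.091 at the other. The 3 Fgfr1 probes had 0.27 and -0.44, 0.026 and 0.51, and 0.17 and -0.16. The sources used here do not say where the floxed segments lie, and a probe outside them checks nothing. With 2 arrays, their number limits the precision of every value. Where levels of the groups are said to overlap or not, 2 mutant levels are set against 2 control levels. The share of all genes without overlap was not counted.

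Most of the 10 regulators lay lower in the mutant pools on both arrays, 1 lay higher on both, and none passed the test. Limma called 0 of the 10 genes, against 0.0287% of all genes (6 of 20923). Its unadjusted p was under 0.05 for 4 of the 10 (1 higher, 3 lower), against 845 of 20923 genes (546 higher, 299 lower). Lower on both arrays were 7 of 10, namely Grhl2, Elf5, Ehf, Foxa1, Pparg, Klf5 and Esrp1, against 21.4% of all genes. Higher on both arrays was Grhl3 alone among them, against 22.1% of all genes. Elf3 and Trp63 went opposite ways on the 2 arrays, as did 11813 of all 20923 genes. The median ratio of the 10 was -0.26 (-0.10 on array 1 and -0.38 on array 2), beside 0.0044 over all genes. By probe, 12 of the 15 tested ones were lower on both arrays and 1 was higher on both. Probes of 1 gene share their transcript and pools, so they are not independent counts. In RNA of whole ureters, fewer cells of a type and less RNA per cell cannot be told apart.

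**Figure D1:**
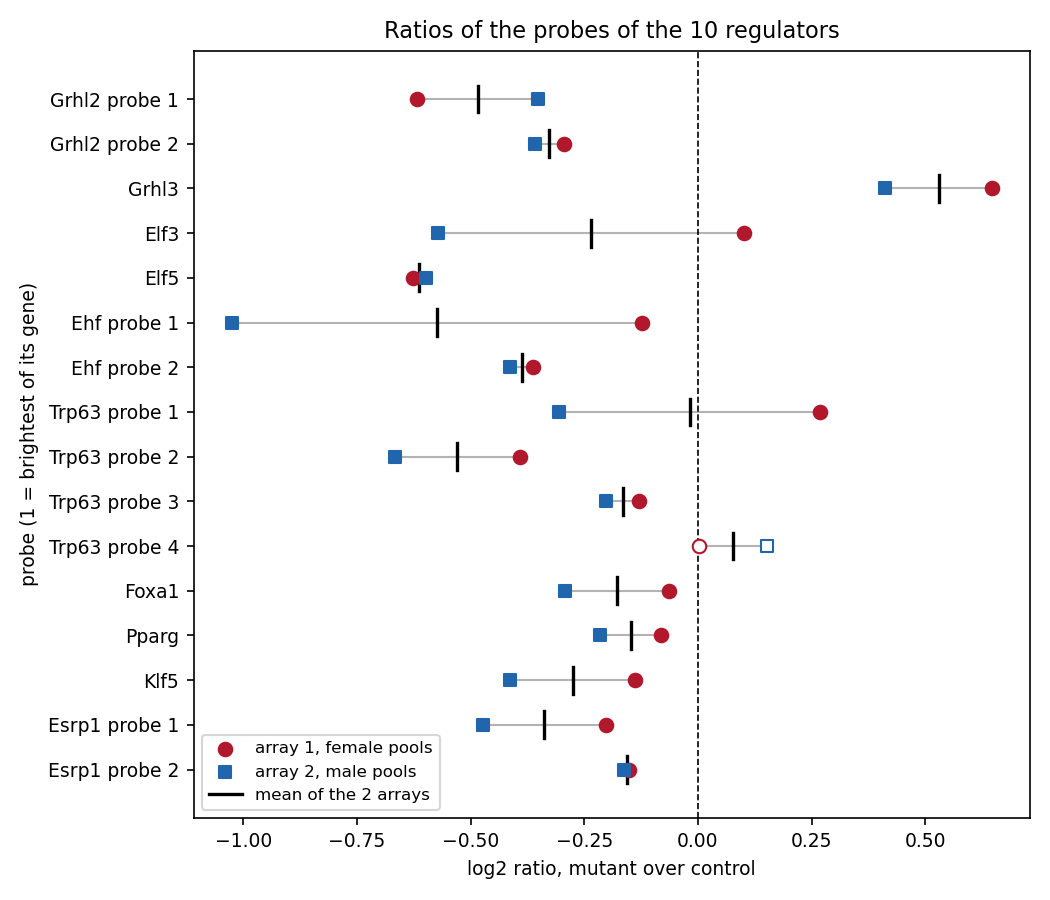
Log2 ratio of mutant over control (horizontal axis) at each of the 16 probes, with circles for array 1, squares for array 2 and a bar for the mean of the 2 arrays. Probe 1 is the brightest of its gene, open symbols mark the dim Trp63 probe that was not tested, and 12 of the 15 tested probes lie left of 0 on both arrays.

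The grainyhead factors, which switch on genes of epithelial junctions and barriers, had ratios of opposite sign. At its brighter probe Grhl2 had normalised log2 levels of 10.38 and 10.36 in the mutant channels of array 1 and array 2, against 10.995 and 10.71 in the control channels. Both mutant channels were below both control channels. The ratios were -0.62 and -0.35, with a mean of -0.48 ± 0.19, a fold of 0.715 (limma adjusted p = 1.0 over all genes). At the dimmer Grhl2 probe, the one farther upstream, the ratios were -0.29 and -0.36, with levels of 6.87 and 6.58 in the mutant channels and 7.17 and 6.93 in the control channels. Here too both arrays gave the mutant as lower, although the mutant level of array 1 was close to the control level of array 2. The levels of this dimmer probe were near the lowest control levels of probes well above background, 6.40 on array 1 and 6.38 on array 2. Of all genes, 137 had a lower mean ratio than Grhl2.

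Grhl3, which mouse bladder urothelium needs for its surface cells, was the exception in direction. Its levels were 8.15 and 8.17 in the mutant channels, against 7.502 and 7.76 in the control channels of array 1 and array 2. The groups did not overlap, and the spots of its 1 probe agreed in sign, from 0.61 to 0.73 on array 1 and from 0.35 to 0.45 on array 2, with 3 spots left on each. The mean ratio was 0.53 ± 0.17, a fold of 1.44, with a 95% interval from limma of 0.17 to 0.89 (limma adjusted p = 0.941). Of all genes, 317 had a higher mean ratio. It did not reach 1.5-fold on both arrays, which 0.296% of all genes did as higher.

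Elf3, Elf5 and Ehf belong to the ETS factors of epithelial cells. Elf5, known for its roles in mammary alveolar cells and the trophoblast, had the steadiest ratio of the 10 representative probes. Its levels were 9.54 and 9.48 in the mutant channels, against 10.16 and 10.08 in the control channels. The ratio was -0.63 on array 1 and -0.60 on array 2, and the single spots ran from -0.78 to -0.46 and from -0.77 to -0.43. The mean was -0.61 ± 0.021, a fold of 0.654, with a 95% interval from limma of -0.96 to -0.27 (limma adjusted p = 0.734). Elf5 was the 1 member of the 10 at least 1.5-fold lower on both arrays, against 0.0956% of all genes (20 of 20923), and 44 genes had a lower mean ratio.

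Ehf, a factor of simple and stratified epithelia, depended on the probe. At the brighter probe its levels were 10.28 and 9.47 in the mutant channels, against 10.41 and 10.49 in the control channels. The control levels were close to each other, and the mutant level of array 2 stood apart, so that the ratios were -0.12 and -1.03 (mean -0.57 ± 0.64, limma adjusted p = 1.0). On array 2 its 4 spots ran from -1.27 to -0.77, so the gap was not that of 1 spot. The dimmer Ehf probe had nearly the same ratio on both arrays, -0.36 and -0.41, from levels of 8.499 and 8.29 in the mutant channels and 8.86 and 8.70 in the control channels. Elf3, which activates genes of terminal epithelial differentiation, had 8.61 and 8.14 in the mutant channels and 8.51 and 8.71 in the control channels. Its ratios of 0.10 and -0.57 had opposite signs, and the levels of the groups overlapped.

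**Figure D2:**
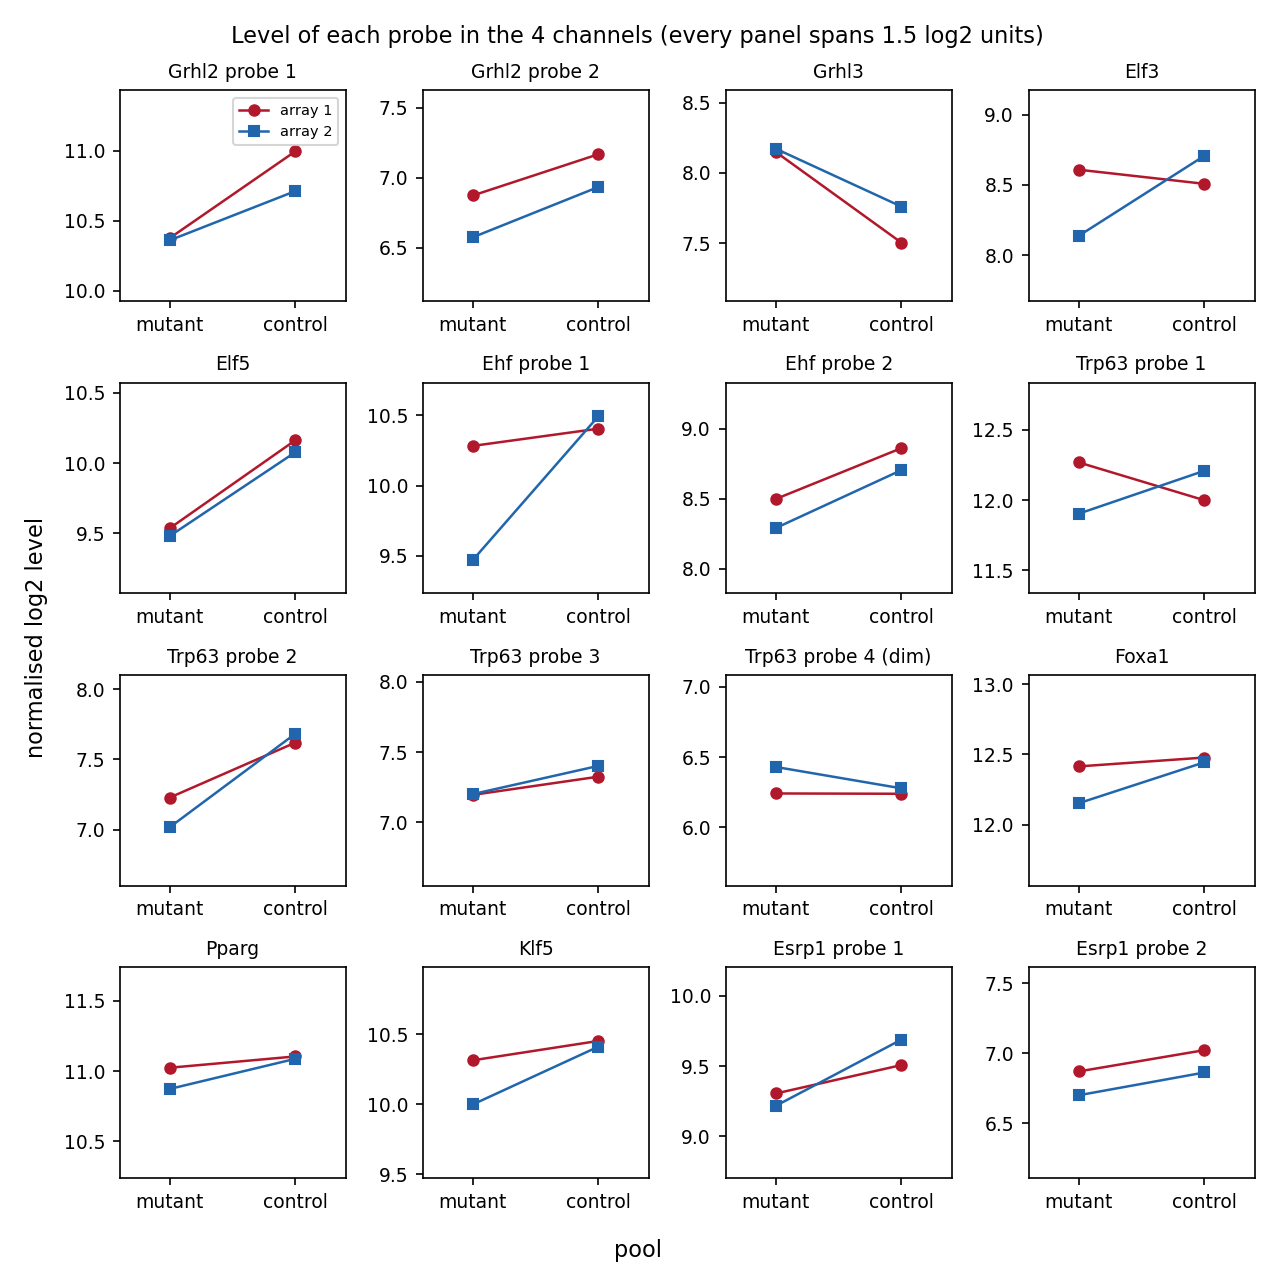
Normalised log2 level (vertical axis, each panel 1.5 units high) of each probe in the mutant and the control channel, with circles for array 1 and squares for array 2. The 2 lines of a panel slope the same way in 14 of the 16 panels, and in opposite ways for Elf3 and the brightest Trp63 probe.

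Trp63, the p53 relative of basal epithelial cells, differed between its probes. Its brightest probe had levels of 12.27 and 11.90 in the mutant channels and 11.999 and 12.21 in the control channels, with ratios of 0.27 and -0.31. The mean was -0.018 ± 0.41, and the 95% interval from limma ran from -0.44 to 0.41. The probe farthest downstream had 7.23 and 7.02 in the mutant channels, against 7.62 and 7.68 in the control channels. Its ratios were -0.39 and -0.67 (mean -0.53 ± 0.19, limma adjusted p = 1.0 over all probes). The probe farthest upstream had -0.13 and -0.20, from levels of 7.19 and 7.20 in the mutant channels and 7.32 and 7.40 in the control channels. A further probe was well above background in the mutant channel of 1 of 2 arrays and in the control channel of 0 of 2, and is given no fold. The 2 tested probes without the repeat were therefore lower on both arrays, and the probe that represents the gene by brightness was not.

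That probe is the one printed above with 6 CAG units in a row. Of all 39429 probes, 3 held a run of 6, and they were the Trp63 probe, a Crebbp probe with ratios of 0.27 and -0.32, and a BC051142 probe with 0.22 and -0.17. All 3 were higher on array 1 and lower on array 2 after the second array was turned, so the Cy5 channel was the brighter one on both arrays. The 3 tested probes with 5 units did the same, with medians of 0.44 and -0.44. Of the 5 tested probes with 4 units 3 did so, and of the 16 with 3 units 5 did, with medians of 0.021 and 0.063. Among probes with shorter runs it was 159 of 599 with 2 units and 4842 of 18100 with 1. Without any unit it was 2593 of 8767. The part of the repeat in the Trp63 ratio was not tested. The other 2 probes with 6 units were looked for after the Trp63 ratios were seen.

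**Figure D3:**
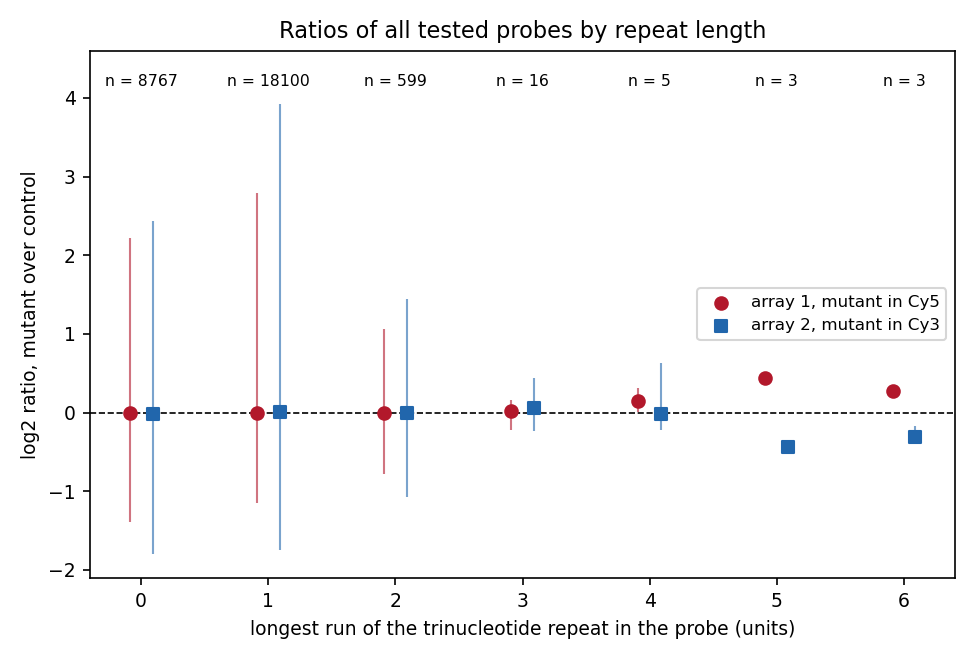
Log2 ratio of mutant over control (vertical axis) of all tested probes by the number of units in the longest run of the CAG repeat that the brightest Trp63 probe carries (horizontal axis). Circles (array 1) and squares (array 2) are medians, lines run from the lowest to the highest probe and n is the number of probes, and at 5 and 6 units the medians lie above 0 on array 1 and below 0 on array 2.

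Foxa1, Pparg and Klf5, which act on urothelial genes directly, had small ratios below 0. Foxa1, a factor that opens chromatin, was at 12.41 and 12.15 in the mutant channels, against 12.48 and 12.44 in the control channels, with ratios of -0.063 and -0.29. Pparg, a nuclear receptor for lipids, was at 11.02 and 10.87 in the mutant channels, against 11.10 and 11.09 in the control channels, with ratios of -0.081 and -0.21. Klf5, a zinc finger factor that mouse bladder urothelium needs to mature, was at 10.31 and 9.999 in the mutant channels, against 10.45 and 10.41 in the control channels, with ratios of -0.14 and -0.41. The 95% intervals from limma held 0 for all 3 genes, at -0.54 to 0.18 for Foxa1, -0.50 to 0.20 for Pparg and -0.64 to 0.089 for Klf5. Each of the 3 had the more negative ratio on array 2, the array with the wider spread over all genes.

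Esrp1, which favours epithelial exons in many transcripts, had ratios below 0 at both probes. Its brighter probe was at 9.30 and 9.22 in the mutant channels, against 9.51 and 9.69 in the control channels, with ratios of -0.20 and -0.47 (mean -0.34 ± 0.19, limma adjusted p = 1.0). The dimmer Esrp1 probe had the steadiest ratio of all member probes, -0.15 and -0.16, from levels of 6.87 and 6.70 in the mutant channels and 7.02 and 6.86 in the control channels. These levels were near the lowest control levels of probes well above background, 6.40 on array 1 and 6.38 on array 2. Both mutant levels were below both control levels at the brighter probe, while at the dimmer one the mutant level of array 1 and the control level of array 2 were nearly the same.

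**Figure D4:**
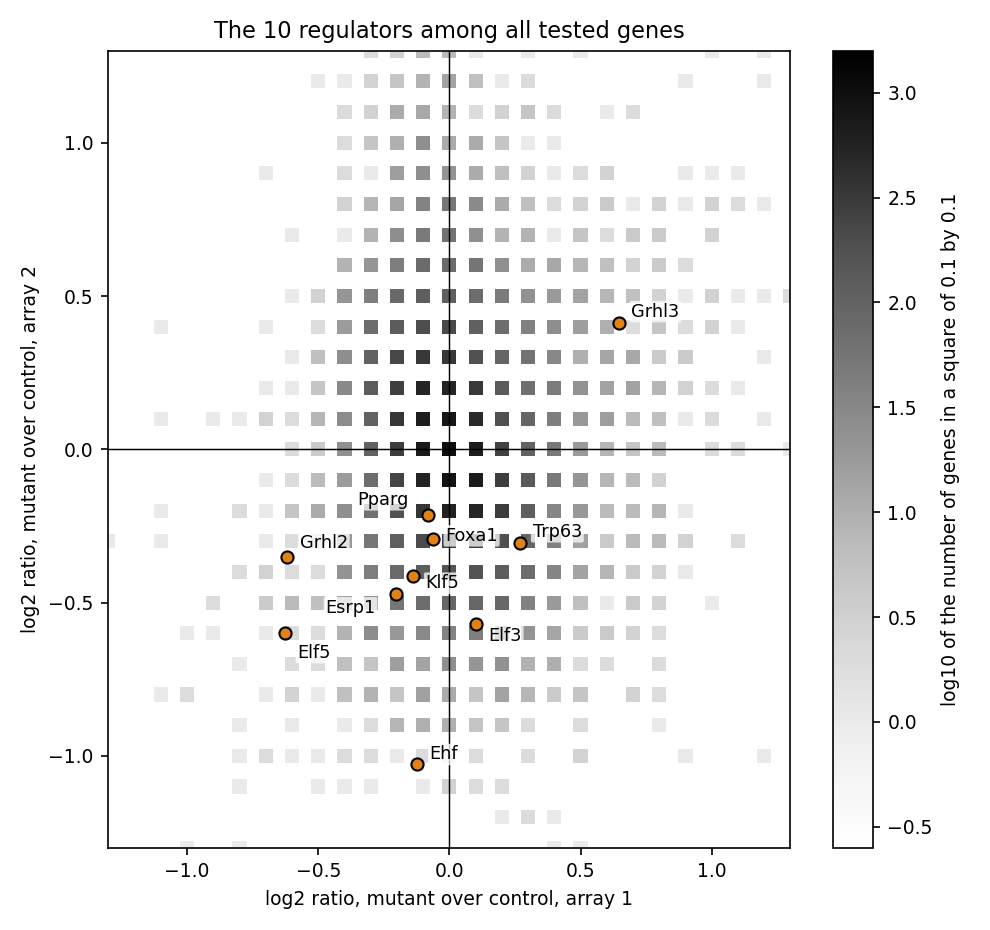
Log2 ratio of mutant over control on array 1 (horizontal axis) against array 2 (vertical axis). Grey squares hold all tested genes, darker with more genes, drawn up to 1.3 either way, and orange points are the 10 regulators, 7 of them in the lower left field and Grhl3 alone in the upper right.

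Paralogs of the regulators did not share one direction. Of 18 tested relatives in the grainyhead, ETS, p53, FOXA, PPAR, KLF and ESRP families, 0 were called, 4 were higher and 7 lower on both arrays, and the median was -0.077. Tfcp2l1, a grainyhead relative of ducts in the kidney, had 12.27 and 11.92 in the mutant channels, against 12.64 and 12.62 in the control channels, with ratios of -0.37 and -0.69 (limma adjusted p = 0.980). Ubp1, of the same subfamily, had -0.072 and -0.66. Esrp2, which shares much of its function with Esrp1, had -0.17 and -0.46, with levels of 8.25 and 8.04 in the mutant channels and 8.43 and 8.501 in the control channels. As for Esrp1, both its mutant levels were below both control levels.

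Other transcription factors of ureteric and urothelial epithelium were mostly on the lower side as well. Of 18 tested, 0 were called, 11 were lower and 0 higher on both arrays, and the median was -0.18. Ovol1, a repressor of mesenchymal genes, had -0.13 and -0.84, Gata3, needed for growth of the nephric duct, had -0.30 and -0.62, and Tfap2a, an AP-2 factor of ectoderm and kidney epithelium, had -0.19 and -0.69. Limma gave each an adjusted p of 1.0. Of 6 repressors that act against the epithelial state, 0 were called, 2 were higher and 1 lower on both arrays. Twist1 had 0.082 and 0.42, Zeb1, which represses Cdh1 and Esrp1 in other cells, had 0.084 and 0.26, and Snai1 had -0.20 and -0.21.

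Known targets of the regulators differed by list. Of 13 tested grainyhead targets, 0 were called, 9 were lower and 0 higher on both arrays, and the median was -0.21. Among them, Prss8, a membrane protease, had -0.26 and -0.55. Cldn4, a claudin of tight junctions, had -0.36 and -0.45, and Marveld2, which sits where 3 cells meet, had -0.31 and -0.30. Both mutant levels of Cldn4, 8.89 and 8.89, were below both control levels, 9.25 and 9.34.

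Of 13 tested p63 targets, 0 were called, 6 were higher and 2 lower on both arrays, and the median was 0.042. Frem2, a basement membrane protein that is also made by ureteric epithelium, was the one farthest from 0, at 10.79 and 10.96 in the mutant channels, against 11.47 and 11.48 in the control channels. Its mean ratio was -0.60 ± 0.11 (limma adjusted p = 0.774). Perp, of desmosomes, had 0.27 and 0.17, and Krt15, a keratin of basal cells, had 0.19 and 0.15.

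Uroplakins and keratins of urothelium lay on both sides of 0. Of 10 tested, 0 were called, 4 were higher and 3 lower on both arrays, and the median was 0.053. Upk3a was at 8.98 and 8.88 in the mutant channels, against 7.52 and 7.64 in the control channels, a mean ratio of 1.35 ± 0.15 (limma adjusted p = 0.0708). Upk1b, its partner-class tetraspanin, was at 7.09 and 7.16 in the mutant channels, against 6.599 and 6.62 in the control channels, a mean ratio of 0.52 ± 0.037 (limma adjusted p = 0.938). These control levels were near the lowest control levels of probes well above background, 6.40 on array 1 and 6.38 on array 2. The Upk1b ratio was 1.27 with the processed signals (limma adjusted p = 0.241) and 1.25 in the authors' deposited table (limma adjusted p = 0.398). Krt23 was at 9.33 and 9.44 in the mutant channels, against 9.82 and 10.05 in the control channels. Upk3a and Upk1b were higher and Krt23 lower on both arrays, without overlap of the groups. Upk3a passed the limma test under 3 of the 11 alternatives that gave a test. The 3 further members of the list, Upk2, Upk3b and Snx31, were not above background often enough to be tested.

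Of 17 tested partners and lipid targets of PPARG, 0 were called, 7 were higher and 5 lower on both arrays, and the median was 0.066, which turned to -0.044 with median centring in place of loess. Cd36, a fatty acid transporter also abundant in macrophages and vessels, had 0.20 and 0.97. Fabp4, a lipid carrier of fat and endothelium, had 0.28 and 0.85, and Angptl4, a secreted inhibitor of lipoprotein lipase, had 0.60 and 0.28. Limma gave each of the 3 an adjusted p of 1.0. Of 14 splicing regulators, 0 were called, 1 was higher and 6 lower on both arrays, and the median was -0.015. Rbm47, an RNA-binding protein of epithelia, was at 9.57 and 8.99 in the mutant channels, against 10.09 and 9.73 in the control channels, a mean ratio of -0.64 ± 0.16 (limma adjusted p = 0.733). Qk, a splicing factor of mesenchymal and other cells, had -0.0084 and -0.53. Of 14 transcripts with exons that ESRP proteins switch, 0 were called, 2 were higher and 3 lower on both arrays, and the median was -0.036. Enah had -0.12 and -0.29, and Magi1 had -0.011 and -0.37. These probes measure a gene and do not tell its splice forms apart.

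**Figure D5:**
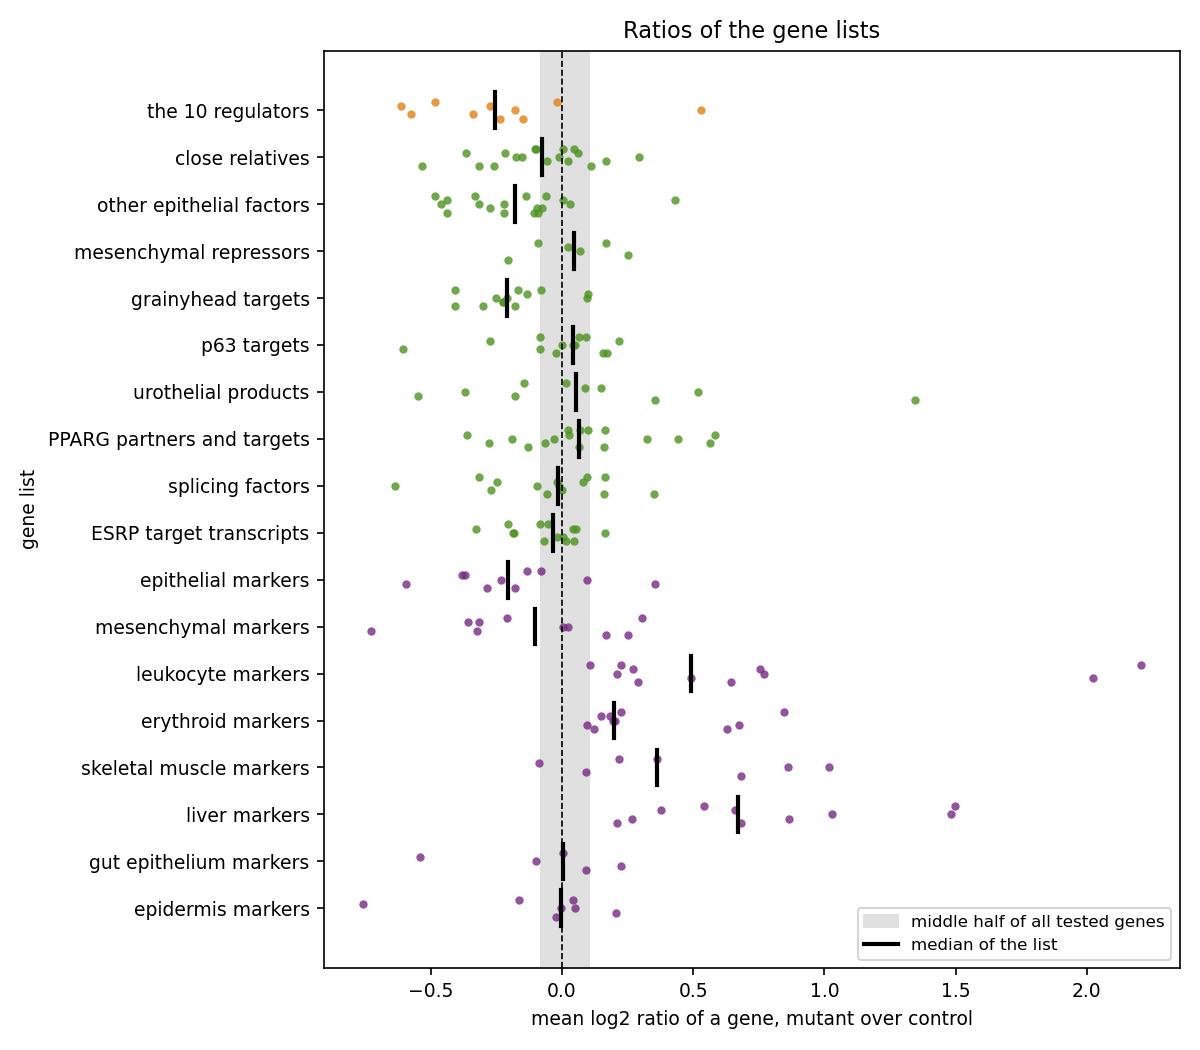
Mean log2 ratio of mutant over control (horizontal axis) of each tested gene in the 10 regulators, the lists of relatives and pathway genes, and the marker lists, with 1 point per gene and a black bar at the list's median. The grey band spans the interquartile range of all tested genes (-0.081 to 0.10), the regulators have their median at -0.26 and the epithelial markers theirs at -0.21.

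Epithelial markers lay on the same side as the regulators. All 10 epithelial and all 10 mesenchymal markers of the ureter could be tested. Some lists share genes, so they are not independent. Cdh1, Epcam and Cldn7 are both epithelial markers and grainyhead targets, and Krt8, Krt18 and Krt19 both epithelial markers and urothelial products. Sox9 is counted among the other epithelial factors and the mesenchymal markers, Esrp2 among the relatives and the splicing regulators, and Krt14 among the p63 targets and the epidermal markers. Of the epithelial ones, 0 were called, 6 were lower and 1 higher on both arrays, and their median was -0.21 (-0.24 on array 1, over a range of -0.42 to 0.47, and -0.21 on array 2, over a range of -0.84 to 0.29). Their summed linear level was 87232 and 80041 in the mutant channels, against 99421 and 103520 in the control channels. With the epithelial marker median subtracted on each array, an alternative chosen after the data were seen, the median of the 10 regulators was -0.027, and 2 of 10 stayed below 0 on both arrays, Elf5 at -0.38 and -0.39 and Grhl2 at -0.37 and -0.14. Grhl3 was then 0.89 and 0.62 above the epithelial marker median. The other 7 regulators were then above 0 on array 1 and below 0 on array 2. These values are for the probe that represents each gene, and other probes differed. The dimmer Ehf probe (-0.12 and -0.20) and the Trp63 probe farthest downstream (-0.15 and -0.46) stayed below 0 on both arrays, as did the dimmer Grhl2 probe (-0.049 and -0.15). The dimmer Esrp1 probe (0.093 and 0.048) and the Trp63 probe farthest upstream (0.11 and 0.0092) were above 0 on both.

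Markers of other tissues also differed between the pools. Leukocyte markers were higher on both arrays for 9 of 11 genes and lower for 0, with S100a8 and S100a9 called (2.02 and 2.21 on average, named after their values were seen). Their sum was 19346 and 18049 in the mutant channels, against 10478 and 10379 in the control channels. Liver markers were higher on both arrays for 9 of 10 genes, with a sum of 11942 and 8398 in the mutant channels, against 5003 and 5761 in the control channels. Erythroid markers were higher for 6 of 10 genes (medians 0.53 and 0.12), skeletal muscle markers for 5 of 7 (medians 0.26 and 0.49), and of the 3 muscle genes not tested Myf5 and Ckm were not well above background in any channel, while Myf6 was in at least 1. Mesenchymal markers were lower for 5 of 10 genes and higher for 2, with a sum of 119090 and 144436 in the mutant channels, against 125151 and 121563 in the control channels. The part of these cell types in the ratios of the regulators was not tested.

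Gut epithelium and epidermis, which also make several of the regulators, were looked for separately. The gut factors Cdx2, Hnf4g and Isx were not well above background in any channel, while Cdx1 and Tff3 were in at least 1 channel but too seldom to be tested. The 5 tested gut markers were Vil1, Lgals4, Muc13, Shh and Gpa33. Of these, 2 were higher on both arrays, 2 went opposite ways and Shh was lower on both (-0.63 and -0.45). Whether the Shh signal came from gut or from the ureter itself was not tested, and the sum below includes it. The sum of the 5 was 1556 and 1440 in the mutant channels, against 1500 and 1545 in the control channels. The epidermal genes Krt77, Krtdap and Edar were likewise not well above background, and the 7 tested epidermal markers summed to 4915 and 4074 in the mutant channels, against 4989 and 5058 in the control channels. The epidermal sum was thus lower in the mutant on array 2 (-0.31) and nearly equal on array 1 (-0.022). Counted by gene, 1 of the 7 epidermal markers was higher and 2 were lower on both arrays, while 4 went opposite ways. Their median was -0.0042. The gut sum went opposite ways, with 0.052 and -0.10. The part of these tissues in the ratios of the regulators was not tested.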

How the data were processed

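Mutant and control ureter RNA was hybridised on 2 two-colour Agilent arrays, and, per the submitters' processing notes, quantified in Agilent Feature Extraction 10.7.3.1. The mean and local background signals are intensity values without normalisation, and the processed signals are intensity values from which the scanner software took background and dye trends, per the file headers. The deposited table of the series holds 1 score per probe and array, by its form a signed linear fold. Over tested probes it correlated with the turned processed signals at 0.973 and 0.991, so it runs mutant over control. Each column's median was 1, and how it was centred is unknown. Processed signals and this table served as alternatives.

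In limma 3.58.1 (R 4.3.3), normexp with an offset of 50 corrected the background and loess with a span of 0.3 normalised each array. Control spots had no weight. Outlier-flagged spots (3.35% and 3.05%) were left out, the usually 4 spots of a probe averaged, and the ratio of array 2 turned. Tested probes had over 0.5 of their spots well above background in the mutant channel of both arrays or the control channel of both. A gene took its brightest tested probe. Ratios were tested against 0 with lmFit and eBayes, adjusted after Benjamini-Hochberg over all 20923 genes or 27493 probes (1 residual and 6.32 prior degrees of freedom). Tested on simulated ratios of 2 arrays, the fit recovered planted changes but called unchanged genes more often than its threshold allows. Adjusted p-values may therefore be too small. The size of the planted changes is not given here. Their recovery does not show that changes as small as those of the regulators would be called. Levels are log2 values after Aquantile normalisation, with the offset left in. Marker sums are linear with the offset subtracted.

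Members were found by GeneName in both scanner files. Names were updated through RefSeq accessions, which matched 28328 of 39429 probes. Members, lists and tests were chosen with earlier results of these data known. The text names all probes of the members and of Fgfr1 and Fgfr2, in each list of relatives or pathway genes up to 3 genes with the largest mean ratio among those going the same way on both arrays, and marker genes not above background in any channel. It also names the tested gut markers. No label says that pools came from separate litters, so differences between the 2 arrays may be technical. The p-values rest on such differences pooled over all genes (6.32 prior degrees of freedom) more than on those of the gene itself (1 residual degree of freedom). The slide could not be fitted, as 1 slide held both arrays.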

Additional observations from a re-analysis of the deposited data

Results flagged for a closer look

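At 4 probes the female and the male pools gave opposite signs, so that array 2 differed from array 1 by -0.67 at the Elf3 probe, by -0.58 at the brightest Trp63 probe, and by -0.71 and -0.33 at 2 of the 3 Fgfr1 probes. The ratios behind these were 0.10 and -0.57 for Elf3, 0.27 and -0.31 for Trp63, and 0.27 and -0.44, and 0.17 and -0.16 for Fgfr1. With 1 array per sex the difference was not tested, and sex, dye and array cannot be told apart. All 4 were higher on array 1 and lower on array 2, which is the Cy5 channel being the brighter one on both. Opposite signs on the 2 arrays were not particular to these probes, since 11813 of all 20923 tested genes had them.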

How the results depend on the processing

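No regulator was called under any of the 11 alternatives that gave a test, and the lowest adjusted p from limma was 0.638. The other 3, each array left out and the epithelial marker median subtracted, gave values without a test. Of 140 values of the 10 regulators under all 14, 135 kept their sign. Elf5 ran from -0.72 to -0.38, Grhl2 from -0.62 to -0.26 and Grhl3 from 0.41 to 0.76. Signs of named genes turned as follows. With 1 array left out, Elf3 ran from -0.57 to 0.10, Trp63 from -0.31 to 0.27 and Fgfr1 from -0.44 to 0.27. With the mean of a gene's probes, Fgfr1 was at 0.061 and Qk at 0.078. With the epithelial marker median subtracted, chosen after the data were seen, Trp63 was at 0.21, Foxa1 at 0.050, Pparg at 0.080, Fgfr1 at 0.14, Snai1 at 0.021, Enah at 0.021 and Magi1 at 0.039, since by construction this adds to every ratio. Without array 1 the median of the regulators was -0.38, and without array 2 it was -0.10. The median of the partners and targets of PPARG turned to -0.044 after median centring and -0.040 without array 1, that of the urothelial products to -0.036 without array 1, and that of the splicing regulators to 0.023 with the mean of a gene's probes. With the epithelial marker median subtracted, the medians of the relatives (0.15), the other epithelial factors (0.050), the grainyhead targets (0.018), the splicing regulators (0.21) and the ESRP targets (0.19) were above 0. Upk1b moved to 1.27 with processed signals and 1.25 in the authors' deposited table.

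The count of called genes, 6, in limma was 0 after median centring, with dim probes kept, and in a fit of the 4 separate channels without dye that was added after the data were seen (853, 1076 and 666 genes at an unadjusted p under 0.05). It was 13 with offset 16 (12 higher), 13 with processed signals, 12 with probes above background in both groups (11 higher) and 11 with flagged spots kept (10 higher). The count of called probes, 6, was 0 after median centring, in the authors' deposited table and with dim probes kept, 13 with offset 16 and 13 with processed signals. The causes were not tested. The planned fit with dye as a covariate was not run, since genotype and dye use up both ratios. The limma fit of ratios within arrays is itself paired, and beyond it no paired analysis was possible because each array holds 1 pair.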
